A study of Mus musculus with 3 samples.

Results

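The Myc, Max and Mxd network is a set of 10 transcription factor genes, Mycn, Myc, Mycl, Max, Mxd1, Mxi1, Mxd3, Mxd4, Mnt and Mga, examined here in undifferentiated F9 cells. Its members were chosen by name, and they and the gene lists below were chosen with earlier results of these data known. A probe set, the group of short probes that reports 1 signal on the array, was counted to a member when the platform annotation gave it that symbol alone. This took in 27 probe sets for 10 of the 18193 named genes on the array. F9 is a mouse embryonal carcinoma line, derived from a teratocarcinoma, that grows as undifferentiated stem-like cells. Total RNA was hybridised to 3 Affymetrix Mouse Genome 430 2.0 arrays, labelled replicates 1, 2 and 3, and these form a single group of untreated cells grown on gelatin-coated plates in serum. Whether the replicates were independent cultures is not stated in the labels, and all p-values therefore reflect variation among 3 samples that may be purely technical. The line stands for 1 tumour-derived cell type.

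Myc, Mycn and Mycl proteins are basic helix-loop-helix leucine zipper factors that bind DNA only as a pair with Max. Myc-Max pairs recruit coactivators to a short DNA element, the E-box CACGTG, and are known for driving ribosome production, metabolism and cell growth. Max also pairs with Mxd1, Mxi1, Mxd3, Mxd4, Mnt and Mga, which bind the same element and oppose Myc, the Mxd and Mnt proteins through Sin3 corepressors and Mga through a Polycomb complex. In pluripotent mouse cells Myc and Mycn are known to act in part in each other's place, and Mga and Max are known to keep germ cell genes silent.

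The E-box is the sequence the whole network shares, so the bases around it are shown for the members that hold one and, for comparison, for the gene with the most copies among those Myc is known to induce. RefSeq promoter windows (GRCm38.p6, 250 bases before and 50 after a transcription start) were found for 9 of the 10 members. Myc was the member without a window, so its promoter was not searched. CACGTG, which reads the same on both strands, occurred in the windows of 3 of these 9 genes (33.3%) and of 8.09% of all 27025 genes with a window. Of the 18 genes listed as induced by Myc, 13 had a window and 4 of them, Cdk4, Nme1, Eif4e and Mybbp1a, held the motif (30.8%). Cdk4, which encodes a cyclin-dependent kinase, held 4 copies and was chosen after these counts were seen. Nme1 held 1 in each of 2 windows, Eif4e 2 and Mybbp1a 1. Each stretch below has the E-box in capitals, with the bases that flank it in lower case, 5′ to 3′ on the strand of the gene.
Max, chr12:76962234-76962263, minus strand: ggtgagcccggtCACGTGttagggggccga
Mnt, chr11:74830789-74830818, plus strand: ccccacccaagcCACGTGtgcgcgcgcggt
Mxd4, chr5:34187912-34187941, minus strand: gggctgggccacCACGTGctgttgctaagc
Cdk4, chr10:127063351-127063380, plus strand: atggcagccagtCACGTGccacacagcgta
Cdk4, chr10:127063405-127063434, plus strand: aagtcaaggggtCACGTGggatagcaacag
Cdk4, chr10:127063425-127063454, plus strand: atagcaacaggtCACGTGgccgtcagggcc
Cdk4, chr10:127063512-127063541, plus strand: aagggtgaagatCACGTGtccagaacgtcc
The copy in the Max window began 3 bases before the start site, that of Mnt 123 bases and that of Mxd4 219 bases before it. A match describes these letters and not a bound site, and no match says only that the letters are missing from that window.

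To set background, 127 probe sets for 114 receptor genes of smell, pheromone sensing and taste and for keratin-associated proteins of hair were used, and the threshold on an array was placed at the 95th percentile of their signals. The thresholds were 44.6, 46.1 and 43.2 on replicates 1, 2 and 3, and the median signals of all probe sets were 37.8, 37.7 and 36.01. A probe set was called above background where limma's one-sided test of its log2 signal over the threshold had a Benjamini-Hochberg adjusted p under 0.05 across 45037 probe sets. By each gene's probe set of highest mean signal, the embryonal carcinoma markers were above background in 8 of 8 genes, against 51.1% of all named genes. By the probe set of lowest mean signal the number was 6. Their summed signal by the highest probe sets was between 32211 and 33604 on the arrays. Of 6 fibroblast and 8 differentiated endoderm markers 0 were called, with summed signals of 151 to 156 and of 262 to 306. Of these 14 the endoderm gene Sox17 was the nearest to a call, at 55.2, 63.3 and 90.7 (limma adjusted p = 0.0735), and it was called under 4 alternative tests, at the 90th percentile, with 16 added to signals, with a variance trend and with dim probe sets left out.

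Myc and Mycn, but not Mycl, were above background in F9 cells. So were Max, the partner they need, and 4 of the 6 antagonists, Mxi1, Mxd3, Mnt and Mga. Mxd1 and Mxd4 were not. In all, 7 of 10 member genes were called by their probe set of highest mean signal, a share of 70% against 51.1% of the 18079 named genes outside the background families. By probe set the count was 12 of 27, or 44.4%, against 38.1% of all probe sets tested. With no test, 13 of 27 member probe sets exceeded the threshold on all 3 arrays, against 41.0% of all probe sets. By genes 7 of 10 members did, against 53.8% of named genes. A gene not called may still be transcribed below what these probes detect.

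Mycn, the Myc family gene of neural and embryonic progenitors, was measured by 3 probe sets. The highest, 1417155_at, had signals of 391, 358 and 377 on replicates 1, 2 and 3. All 3 values lay close together and far from the threshold, 3.07 ± 0.11 log2 units over it (moderated SE, n = 3, 95% interval 2.72 to 3.42, limma adjusted p = 0.000202). Each SE of log2 units over the threshold is limma's moderated one, which also draws on the variance of all probe sets. A second, 1425922_a_at, read 114, 89.99 and 99.6, which is 1.18 ± 0.14 log2 units over the threshold (limma adjusted p = 0.00395). The third, 1425923_at, stood at 54.3, 45.9 and 47.9, with replicate 2 just under its threshold, and was not called (limma adjusted p = 0.391). The 2 called probe sets of this single gene thus had mean signals of 376 and 101 on the same arrays. Signals of different probe sets depend on their probes, so those of different genes are set side by side here without being ranked as amounts of transcript.

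Myc, the founding member of the family and a general growth regulator, had 1 probe set, with signals of 777, 779 and 760. The 3 arrays were almost level, a range of 0.04 log2 units that is smaller than in 98.1% of all probe sets above background. It stood 4.11 ± 0.11 log2 units over the threshold (moderated SE, n = 3, 95% interval 3.79 to 4.44, limma adjusted p = 0.00012). Both activators were thus detected, Mycn by 2 of 3 probe sets and Myc by its only one, and these 3 calls held under every alternative threshold, scaling, filter and left-out replicate.

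Mycl, a further activator, known from neuroendocrine and dendritic cells, was called by 0 of 3 probe sets. Its highest, 1434777_at, read 86.8, 31.6 and 56.3 on replicates 1, 2 and 3. Replicates 1 and 3 lay above their thresholds and replicate 2 below, and the mean of 0.27 ± 0.36 log2 units was within its error of the threshold (limma adjusted p = 0.594). The 95% interval, from -0.83 to 1.37 log2 units, allows a signal up to 2.58 times the threshold. The other 2 probe sets had mean signals of 39.8 ± 3.05 and 28.1 ± 8.12 (SD, n = 3) and were under the threshold on all 3 arrays. None of the 3 was called under any alternative.

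Max, the partner that the activators need and the antagonists share, was measured by 1 probe set at 561, 795 and 479. Replicate 2 was the highest and replicate 3 the lowest, a 1.66-fold range. The mean lay 3.74 ± 0.18 log2 units over the threshold (moderated SE, n = 3, 95% interval 3.19 to 4.30, limma adjusted p = 0.000365). All 3 arrays lay far above their thresholds.

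**Figure D1:**
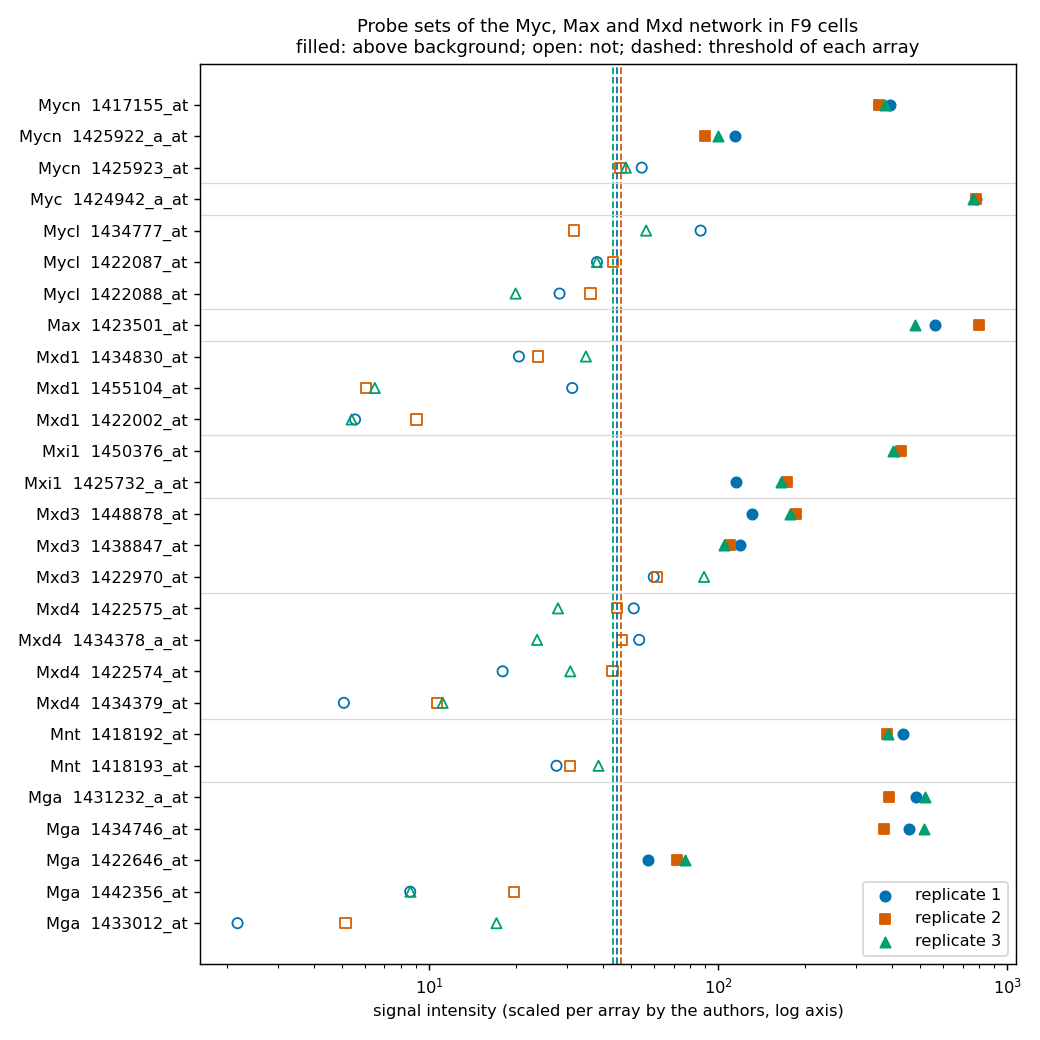
Signal of each member probe set (rows) on each of the 3 F9 arrays (coloured points), on a log axis, with each array's background threshold dashed. Filled points mark the 12 of 27 probe sets above background, and every probe set of Mycl, Mxd1 and Mxd4 is open.

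The Mxd family genes were split, with Mxi1 and Mxd3 above background and Mxd1 and Mxd4 not. These encode small repressors that pair with Max and bring in Sin3, and several of them are known to be induced as cells stop dividing and differentiate, whereas Mxd3 is known to be expressed in dividing cells. Mxi1 was called by both of its probe sets. The higher, 1450376_at, read 419, 429 and 402, nearly the same on each array, 3.22 ± 0.10 log2 units over the threshold (limma adjusted p = 0.000161). The other, 1425732_a_at, read 116, 173 and 165, with replicate 1 the lowest, and was 1.74 ± 0.18 log2 units over (limma adjusted p = 0.00265).

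Mxd3 was called by 2 of 3 probe sets. The first, 1448878_at, had signals of 131, 186 and 178, at 1.87 ± 0.16 log2 units over the threshold (limma adjusted p = 0.00166). The second, 1438847_at, read 119, 110 and 104, at 1.31 ± 0.11 log2 units (limma adjusted p = 0.0016). Replicate 1 was thus the lowest of the 3 by the first probe set and the highest by the second. The third, 1422970_at, read 59.8, 61.3 and 89.3, above the threshold on all 3 arrays, and missed the call at 0.63 ± 0.20 log2 units (limma adjusted p = 0.0573). It passed at the 90th percentile (0.0288), with 16 added to signals (0.035), with a variance trend (0.0164) and with dim probe sets left out (0.0206).

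Mxd1, the founding antagonist and known from differentiating blood and epithelial cells, was under the threshold on all 3 arrays by each of its 3 probe sets. Its highest, 1434830_at, read 20.4, 23.9 and 34.8, and the 95% interval of -1.47 to -0.12 log2 units lay wholly below the threshold. The probe set 1455104_at read 31.2 on replicate 1 against 6.04 and 6.48 on replicates 2 and 3. By this probe set the arrays differed 5.17-fold, against 1.70-fold for 1434830_at and 1.68-fold for 1422002_at, and all signals stayed below the threshold.

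Mxd4 was called by 0 of 4 probe sets. The pair with the highest mean signals read 51.0, 44.7 and 27.9 (1422575_at) and 53.3, 46.4 and 23.6 (1434378_a_at). Both were above the threshold on replicate 1 and well below it on replicate 3. Their log2 values were -0.16 ± 0.22 and -0.20 ± 0.29 (moderated SE, n = 3), within error of the threshold (limma adjusted p = 1 for each). The other 2 had mean signals of 30.6 ± 12.5 and 8.96 ± 3.38 (SD, n = 3).

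Mnt, a larger antagonist that is known to be expressed widely, in dividing and resting cells alike, was above background by 1 of 2 probe sets. The probe set 1418192_at read 436, 384 and 387, at 3.17 ± 0.12 log2 units over the threshold (limma adjusted p = 0.000201). The other, 1418193_at, read 27.6, 30.6 and 38.5, below the threshold on all 3 arrays, although its annotation cites the same transcript.

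Mga, a very large protein that carries both a T-box and a Max-binding domain and serves as the scaffold of a variant Polycomb complex, was called by 3 of 5 probe sets. The probe set 1431232_a_at read 482, 389 and 517 and 1434746_at read 457, 373 and 515. The order of the arrays was the same in both, with replicate 2 the lowest and replicate 3 the highest, and they stood 3.37 ± 0.16 and 3.32 ± 0.17 log2 units over the threshold (limma adjusted p = 0.000334 and 0.000389). Another, 1422646_at, was close to background at 57.3, 72.02 and 76.9 (0.61 ± 0.15 log2 units, limma adjusted p = 0.0308). Its call was lost without replicate 1, 2 or 3 (limma adjusted p = 0.0587, 0.128 and 0.113) and at the 99th percentile (0.569). The remaining 2 had mean signals of 12.3 ± 6.36 and 8.13 ± 7.90 (SD, n = 3) and were below the threshold on all 3 arrays.

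Set side by side, the probe sets of highest mean signal lay 3.07 log2 units over the threshold for Mycn, 4.11 for Myc and 3.74 for Max. Among the antagonists above background the values were 3.22 for Mxi1, 1.87 for Mxd3, 3.17 for Mnt and 3.37 for Mga. The members not called lay at 0.27 for Mycl, -0.16 for Mxd4 and -0.79 for Mxd1. These are distances of probe sets from background, and no test was made between them. By the probe set of highest mean signal, the median over the 10 member genes was 3.12 log2 units, against 0.72 over all named genes. Over probe sets the gap was smaller, with a median of 0.27 for the 27 of the members against -0.43 for all probe sets. Choosing the highest favours genes with several probe sets, which were 8 of the 10 members and 8999 of the 18079 named genes. The same holds for the share of genes called.

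Of the 8 members with several probe sets, 1 was called by all of them (Mxi1), 3 by none (Mycl, Mxd1 and Mxd4) and 4 by some (Mycn, Mxd3, Mnt and Mga). Among all named genes with several probe sets 39.9% had mixed calls. Taking each gene's probe set of lowest mean signal, 3 of 10 member genes were called, Myc, Max and Mxi1, against 31.3% of all named genes by the same choice. The number was 7 again with the probe set preferred by suffix and without the _s_at and _x_at probe sets.

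Between arrays, the 12 member probe sets above background ranged over 0.04 to 0.73 log2 units, with a median of 0.38 against 0.25 over all probe sets above background. Myc was at the low end and Max at the high end, where 95.3% of all called probe sets had a smaller range. No array was set apart over the members: replicates 1, 2 and 3 were the highest for 4, 5 and 3 of the 12 probe sets and the lowest for 3, 5 and 4. The median deviation of the members from their own means was 0.03, 0.001 and -0.01 log2 units on the 3 arrays. The 2 called Mycn probe sets had the same order of arrays, replicate 1 highest and replicate 2 lowest, whereas those of Mxi1 and of Mxd3 did not share an order.

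**Figure D2:**
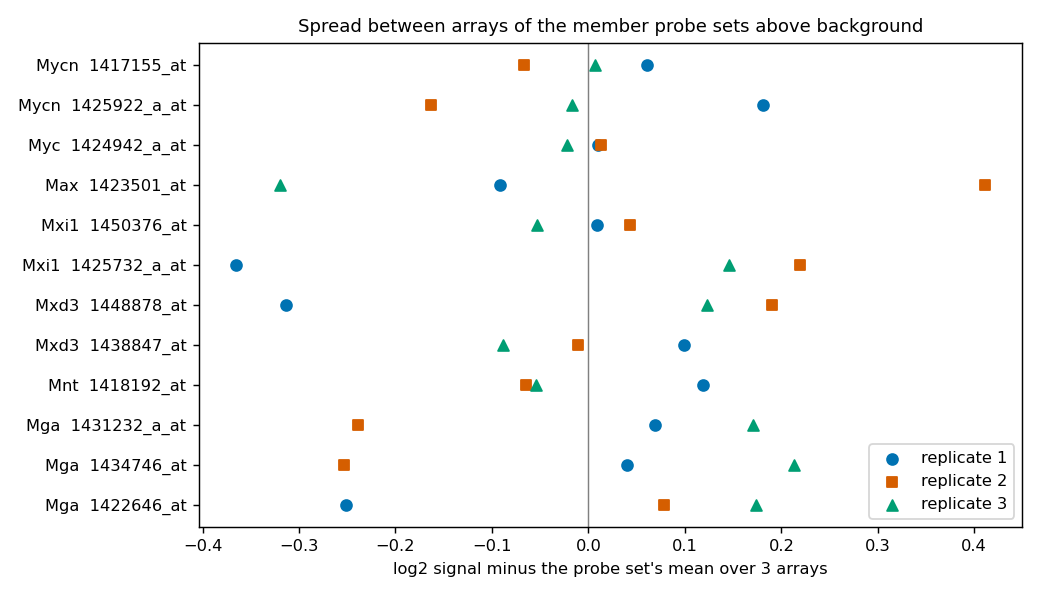
Log2 signal of each called member probe set on each array, minus the probe set's mean over the 3 arrays. Myc shows a spread of 0.04 log2 units and Max of 0.73, and no replicate is highest or lowest throughout.

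Genes that work with the network were also described by list. Of 75 such genes 69 had a probe set with a single symbol, and 64 of these were above background. The counts by list below stand beside the 51.1% of all named genes that were called. These lists were chosen with earlier results of these data known and were not tested as sets. The Mlx branch, a parallel network in which Mlx takes the place of Max, had 2 of 3 called: Mlx (694 ± 31.0) and Mlxip (239 ± 24.1; SD, n = 3). Mlxipl, the glucose-responsive factor of liver and fat, read 1.98, 17.9 and 3.46 and was not called. Of the mouse Myc gene copies, Bmyc was above background at 194, 157 and 136 (1.84 log2 units, limma adjusted p = 0.00147), while Mycs was not, at 14.1, 12 and 16.2.

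The cofactors on both sides were above background almost throughout. The Myc coactivators were called in 12 of 12 measured genes, with a median of 4.66 log2 units over the threshold. They include the scaffold Trrap (450 ± 33.7), the acetyltransferases Kat2a (1313 ± 121) and Kat5 (710 ± 14.0) and the remodelling ATPase Ep400 (471 ± 20.7; SD, n = 3). Zbtb17, counted in the coactivator list, binds Myc but is not a coactivator. Its call was weak (0.80 log2 units, by 1 of 2 probe sets). By the probe set of lowest mean signal 10 genes of that list were called. The corepressors of Mxd and Mnt were called in 8 of 8, with a median of 6.19, and in 7 by the lowest probe set. Their scaffolds Sin3a and Sin3b had signals of 908 ± 46.0 and 1945 ± 95.4, and the deacetylases Hdac1 and Hdac2 of 3742 ± 17.7 and 3378 ± 194. Over all named genes the median was 0.72.

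The partners of Mga in its Polycomb complex were called in 7 of 8 genes, with a median of 4.04 log2 units. L3mbtl2 (896 ± 57.9), Pcgf6 (1377 ± 16.7), E2f6 (599 ± 63.8) and Tfdp1 (2730 ± 155; SD, n = 3) were among them. Cbx3, a heterochromatin protein, had 1 probe set of its own, at 29.0, 61.6 and 49.7, which was not called. A further 4 probe sets name Cbx3 together with a pseudogene and were not used. Rybp, also in this list, had no probe set with its symbol alone. By the probe set of lowest mean signal the number of these partners called was 5. Genes of Myc protein turnover were called in 11 of 11, with a median of 3.50. These include Fbxw7 (401 ± 23.6), the ubiquitin ligase subunit that recognises phosphorylated Myc, the kinases Gsk3b (418 ± 32.5) and Gsk3a (624 ± 27.6) that help create that mark, and the deubiquitinase Usp28 (350 ± 21.7). By the probe set of lowest mean signal the number was 7.

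Genes that Myc is known to induce were called in 18 of 18, with a median of 6.50 log2 units over the threshold. By the probe set of lowest mean signal the number was 15. Odc1, the first enzyme of polyamine synthesis, had a signal of 7781 ± 83.0. The nucleolar proteins Ncl and Npm1 read 9814 ± 428 and 13343 ± 370, and the pyrimidine synthesis enzyme Cad 873 ± 79.3 (SD, n = 3). Genes that Myc is known to repress were called in 5 of 7, with a median of 2.43. The CDK inhibitor Cdkn1a read 272, 243 and 209 and Cdkn1b 706, 700 and 739. The stress gene Gadd45a was also called (247 ± 5.63), while the CDK inhibitor Cdkn2b (11.6, 45.6 and 49.2) and the differentiation factor Cebpa (8.22, 22.3 and 23.0) were not. By the probe set of lowest mean signal the number for this list was 2. The induced and repressed lists were compiled from general knowledge of Myc, and in 1 untreated group their levels show no response to it.

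**Figure D3:**
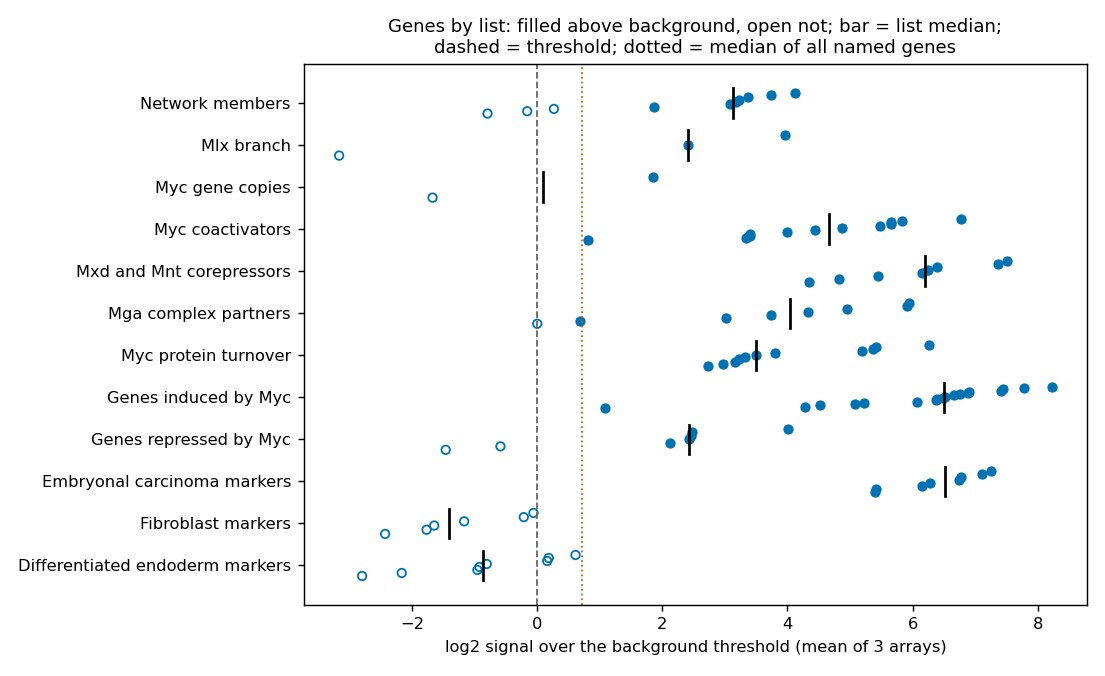
Log2 signal over the background threshold, mean of 3 arrays, for each measured gene of the network and of the lists around it, with list medians as bars. Filled points mark genes above background, 7 of 10 members and 18 of 18 genes induced by Myc among them, and the dotted line is the median of all named genes, 0.72.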

How the data were processed

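Signals came from 3 F9 arrays, 1 group. The deposited values are linear intensity values, 1 per probe set, made by the authors with GCOS 1.4 per the submitters' processing notes. No source used here names the signal algorithm, and detection calls were not used. Each array had been scaled: the mean after trimming 2% at each end was 250.002 on every array. This hides any change in total RNA. No further normalization was applied, and 64 Affymetrix controls were left out. Symbols came from an annotation of 2016, in which 34945 probe sets had 1 symbol, 932 several and 9160 none. A GRCm38.p6 gene table gave the same symbol for all 27 member probe sets.

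The test of log2 signal over threshold used R 4.3.3 and limma 3.58.1 (intercept, eBayes, one-sided), adjusted over 45037 probe sets. The standard errors of log2 units over the threshold are limma's moderated ones, from the arrays' spread and the variance of all probe sets. They do not cover the error of the threshold. The number of arrays limits the precision. The test was tested on simulated data for 45037 probe sets. With 200 placed at each distance, it called 98% at 1 log2 unit over a known threshold, 49.5% at 0.5 units and 2% at 0. The simulated noise depended on signal level alone and the threshold was fixed. These rates therefore need not hold for the real probe sets. Members and lists were chosen with earlier results of these data known. Named were all members, the first 4 measured genes of each other list and up to 3 that went against the majority call there; of the marker lists Sox17 alone was named, and it and the genes named for E-boxes were chosen after their values were seen. Proteins were not analysed here. Alternatives covered threshold, added signal, normalization, variance trend, filter, probe set choice and leaving out each replicate.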

Additional observations from a re-analysis of the deposited data

How the results depend on the processing

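Of the 12 member probe sets called, 11 were called under all 11 alternatives, and 14 of the 27 under none. The number of called member probe sets was 11 to 13, 11 without replicate 1, 2 or 3. The exceptions were 1 probe set of Mga, lost without any 1 replicate and at the 99th percentile, and 1 of Mxd3, gained under 5 alternatives. Choosing the probe set of lowest mean signal gave 3 member genes in place of 7, against 5662 (31.3%) of all named genes in place of 9237, by construction a lower signal per gene. Among the genes around the network the number was 61 to 64, and 49 by the lowest probe set. Zbtb17, Ring1 and Tert, chosen after their values were seen, lost their calls without replicate 1 or 3 and at the 99th percentile, and Ring1 also without replicate 2. No paired analysis was possible because all samples form 1 group. In the simulation, low signals were only partly resolved with 3 arrays: 49.5% of probe sets 0.5 log2 units over the threshold were called.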
